A study of Homo sapiens with 12 samples.

Results

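The genes described here encode the proteins of the mitochondrial ribosome whose symbols begin with MRPL (large subunit) or MRPS (small subunit). They were taken from the raw count table as every symbol made of MRPL or MRPS, a number and at most 1 letter A, B or C, with a summed count of at least 120 over the 12 libraries. This gave 78 of 58735 genes, 49 of the large and 29 of the small subunit by symbol, and 0 matching symbols had a lower count. The members closest above that minimum were MRPS24 with 603 counts, MRPL53 with 778 and MRPL38 with 1209, and all 78 were among the 17290 genes tested.

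RNA was sequenced from U2OS cells, an established line from a human osteosarcoma, in 4 groups with 3 libraries each. The cells had been kept for 24 h with the solvent DMSO alone, with TH10785 at 10 µM, with PNKP1i at 10 µM, or with both at 10 µM each. TH10785 is an activator of OGG1, the glycosylase that removes oxidised guanine from DNA, and the series record spells the compound TH10587. For PNKP1i the sources used here give no structure, and all groups come from a single line at a single dose and time, with no genotype differing between them. The labels do not state that the libraries of a group are separate cultures, so a p-value measures only the spread between these libraries, which may be technical. In bulk RNA, fewer cells of a kind and less RNA per cell cannot be told apart.

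Mitochondrial ribosomes translate the few proteins that mitochondrial DNA encodes, which are membrane subunits of the respiratory chain and of ATP synthase. Their RNAs come from mitochondrial DNA, while every one of their proteins is encoded in the nucleus, made on cytosolic ribosomes and imported. Some of these proteins have a bacterial counterpart and keep its number, and others exist only in mitochondria. The symbol does not always give the place of the protein: MRPS18A and MRPS30 sit in the large subunit, and MRPS36 is known as a part of the 2-oxoglutarate dehydrogenase complex. The factors NRF1, GABP (an ETS-family factor) and YY1 are known to act at promoters of many nuclear genes for mitochondrial proteins.

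RefSeq promoters (GRCh38.p14, 250 bases before to 50 after the start) were matched by symbol to 69 of the 78 genes, 11 of them with more than 1 listed start. The following letters were searched on both strands, and a gene was counted if any of its starts held a match. The ETS letters CCGGAAG were in 43.5% of the 69 genes and in 12.2% of the 27305 genes of the table. The YY1 letters AGATGGC were in 33.3% against 6.6%, and the NRF1 letters GCGCATG, 1 arm of its palindrome, in 10.1% against 5.3%. At least 1 of these 3 was in 47 of the 69 genes, 68.1%, and in 21.4% of all genes. The E-box CACGTG was in 13.0% against 8.8%, the ATF4 letters TGATGNAA in 1.4% against 4.5%, and the NFY letters CCAAT in 33.3% against 39.7%. Among the 11 matched genes that rose with both compounds, 5 held the ETS letters and 5 the YY1 letters. Among the 3 matched genes that fell, 0 held the ETS letters and 2 the YY1 letters. Over the 55 others the counts were 25 and 16. A match describes letters and not binding.

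The promoters below were chosen after the values were seen, as those of genes whose changes are described next: MRPL1, MRPS10 and MRPL32 were among the genes that rose with both compounds, MRPL49 was among those that fell, and MRPS34 had the highest level per length. They lie at chr4:77862580-77862879 (MRPL1, plus strand), chr6:42217812-42218111 (MRPS10, minus strand), chr7:42932126-42932425 (MRPL32, plus strand), chr11:65121933-65122232 (MRPL49, plus strand, the first of its 2 listed starts) and chr16:1773085-1773384 (MRPS34, minus strand). Capitals mark the ETS, YY1 and NRF1 letters above on either strand, which MRPL1 and MRPL49 lack here.
MRPL1: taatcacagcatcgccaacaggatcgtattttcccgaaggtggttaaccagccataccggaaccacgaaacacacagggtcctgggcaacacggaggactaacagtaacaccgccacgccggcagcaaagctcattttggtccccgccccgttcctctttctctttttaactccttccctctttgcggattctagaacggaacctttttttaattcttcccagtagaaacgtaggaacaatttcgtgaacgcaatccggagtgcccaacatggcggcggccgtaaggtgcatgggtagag
MRPS10: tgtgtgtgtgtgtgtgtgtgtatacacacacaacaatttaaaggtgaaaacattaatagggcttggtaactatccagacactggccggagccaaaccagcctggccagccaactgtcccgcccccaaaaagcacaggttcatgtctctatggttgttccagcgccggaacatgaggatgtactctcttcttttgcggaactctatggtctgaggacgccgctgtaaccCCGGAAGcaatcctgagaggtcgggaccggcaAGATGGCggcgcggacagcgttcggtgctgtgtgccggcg
MRPL32: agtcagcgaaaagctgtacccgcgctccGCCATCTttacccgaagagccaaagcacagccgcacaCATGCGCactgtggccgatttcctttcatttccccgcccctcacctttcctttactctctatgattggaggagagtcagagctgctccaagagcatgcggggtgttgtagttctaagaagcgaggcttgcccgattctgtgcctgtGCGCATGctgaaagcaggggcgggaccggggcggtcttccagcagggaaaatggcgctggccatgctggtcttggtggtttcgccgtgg
MRPL49: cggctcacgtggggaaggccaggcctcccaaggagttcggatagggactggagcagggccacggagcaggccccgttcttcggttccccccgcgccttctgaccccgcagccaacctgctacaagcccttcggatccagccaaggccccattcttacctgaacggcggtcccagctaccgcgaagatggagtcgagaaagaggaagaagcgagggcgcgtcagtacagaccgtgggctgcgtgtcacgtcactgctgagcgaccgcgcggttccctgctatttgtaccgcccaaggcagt
MRPS34: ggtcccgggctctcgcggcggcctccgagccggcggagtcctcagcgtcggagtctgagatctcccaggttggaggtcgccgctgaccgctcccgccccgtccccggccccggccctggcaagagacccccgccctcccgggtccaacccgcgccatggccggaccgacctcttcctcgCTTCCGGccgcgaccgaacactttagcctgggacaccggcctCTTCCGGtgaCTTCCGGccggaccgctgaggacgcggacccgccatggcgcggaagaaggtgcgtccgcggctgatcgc

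In DMSO the level of the members, in CPM (a gene's reads relative to all reads of the library, scaled by TMM) and per kilobase of exon, had a median of 18.1, against 2.66 over all tested genes. MRPS34, a mitochondria-specific protein of the small subunit, stood first with 160 ± 21 CPM per kb (SD, n = 3). MRPL14 followed with 85.6 ± 15 and MRPS16 with 74.9 ± 11, and the spreads of these 2 overlap. The lowest were MRPL46 with 1.34 ± 0.35, MRPS24 with 0.882 ± 0.25 and MRPL42 with 0.736 ± 0.14 CPM per kb. MRPL42 has annotated exons of 16393 bases in all, far above the members' median of 2539, and the length that was transcribed here is not known. By subunit the median was 18.8 CPM per kb for the large and 14.2 for the small. Together the members held 0.345% to 0.508% of the counts of a library. Symbols of 35 mitoribosomal pseudogenes were also in the table, with 0.0273% of the members' summed count in all, and the highest share for 1 member was 4.9%, for MRPS31.

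With TH10785 alone, 0 of the 78 members were called higher and 0 lower by edgeR's quasi-likelihood test (Benjamini-Hochberg adjusted p under 0.05), where 0.515% of all tested genes were called higher and 0.0463% lower. The members lay mostly above DMSO: 67 of 78 had a positive log2 fold change, with a median of 0.28 against -0.02 over all tested genes. At an unadjusted p under 0.05 there were 27 members, all higher, a count that has no share of all tested genes beside it. In 23 members each TH10785 library was above each DMSO library, and in 0 members below, where 9.64% of all tested genes were apart upwards and 10% downwards. MRPL36, the small large-subunit protein named after bacterial L36, had the smallest p.

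MRPL36 measured 22.7, 20.1 and 16.6 CPM in DMSO and 32.1, 30.2 and 29.5 CPM with TH10785. The groups do not overlap, and the log2 fold change was 0.63 (SE 0.15, edgeR adjusted p = 0.0746). MRPL11, which lies at the base of the stalk that recruits elongation factors, measured 101, 84.5 and 62.6 CPM in DMSO and 108, 113 and 147 with TH10785. Its log2 fold change was 0.57 (SE 0.17, adjusted p = 0.16, edgeR), with the lowest TH10785 library just above the highest DMSO library. MRPL12, the stalk protein, was at 0.45 (SE 0.15, edgeR adjusted p = 0.201), also with groups apart. MRPL10, the protein that holds MRPL12, was at -0.18 (SE 0.14, edgeR adjusted p = 0.608). None of MRPL10, MRPL11 and MRPL12 was called, and differences between them were not tested. DESeq2 called 1 member higher with TH10785, and leaving out the count filter gave 6 rises, where 1.39% and 1.11% of all tested genes rose. With the GC and length offsets fitted per library, MRPL36 was called, at 0.47 (edgeR adjusted p = 0.0472).

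With PNKP1i alone, 0 members were called higher and 0 lower, where 0.174% and 0.0231% of all tested genes were called. The median log2 fold change was 0.16 against -0.02 over all tested genes, and 63 of 78 were positive. At an unadjusted p under 0.05 there were 6, all higher, again with no share of all tested genes beside it. DESeq2 called 1 member higher, where it called 0.581% of all tested genes higher. PNKP1i libraries lay wholly above DMSO for 13 members and wholly below for 4, or 16.7% and 5.13%, where all tested genes gave 11.7% and 14.2%. MRPS6, named after bacterial S6, had the smallest p. It measured 24.8, 26.3 and 21.9 CPM in DMSO and 36, 36.4 and 35.4 CPM with PNKP1i, with no overlap. Its log2 fold change was 0.56 (SE 0.13, edgeR adjusted p = 0.124). Of the 15 members of a fixed list, none was called. MRPL11 was highest, at 0.47 (SE 0.17, edgeR adjusted p = 0.366). MRPL58, MRPL12, MRPS12, MRPS18A and MRPL45 were at 0.28, 0.27, 0.27, 0.24 and 0.20, and MRPL3, MRPS18B and MRPS18C at 0.17, 0.15 and 0.15. MRPS7, MRPL44 and MRPL10 were at 0.07, 0.06 and 0.04, and MRPS36, MRPS22 and MRPS30 at -0.06, -0.07 and -0.08.

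**Figure D1:**
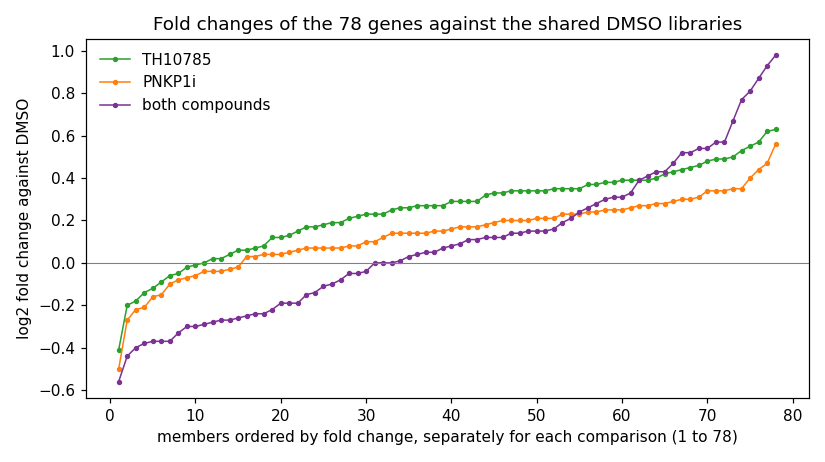
Log2 fold change against DMSO (vertical axis) of the 78 members, ordered from lowest to highest separately for TH10785 (green), PNKP1i (orange) and both compounds (purple), 1 point per gene. The single-agent curves lie mostly above 0 with medians of 0.28 and 0.16, and the purple curve spans a wider range, from -0.56 to 0.98, with a median of 0.07; the 3 comparisons share the DMSO libraries.

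With both compounds the called members went both ways, and 60 of 78 were not called against DMSO. Against DMSO, 14 of 78 rose and 4 fell, or 17.9% and 5.13%, where 21.3% of all tested genes rose and 19.7% fell. The share that rose was near that of all genes, and the share that fell was smaller than that of all genes. The members' median log2 fold change was 0.07, against 0.04 over all tested genes. The 14 that rose were MRPL1, MRPL42, MRPL50, MRPL13, MRPL47, MRPS10, MRPS23, MRPS36, MRPL32, MRPL3, MRPS18C, MRPL15, MRPL19 and MRPS35, from 0.98 down to 0.41. The 4 that fell were MRPL37, MRPL49, MRPL2 and MRPS18B. Their calls were lost in 3, 13, 11 and 7 of 23 alternatives, in that order. The members that rose had a GC content, over all annotated transcripts of the gene, of 35.0% to 46.3%, and those that fell 51.7% to 55.2%. With offsets for GC content and exon length fitted in each library, 5 members rose and 9 fell, and 0 of the 14 rises and 2 of the 4 falls (MRPL37 and MRPS18B) were among them. These were 6.41% and 11.5% of the members, where 16.9% of all tested genes rose and 17.5% fell with the offsets.

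MRPL1 (ENSG00000169288, chr4:77862520-77952790, GRCh38) encodes the protein of the L1 stalk, the arm that the used tRNA passes on leaving the ribosome. It measured 10.3, 8.25 and 8.14 CPM in DMSO and 15.7, 17.0 and 20.1 CPM with both compounds. With TH10785 it measured 10.7, 9.37 and 3.22 CPM, and with PNKP1i 4.79, 7.16 and 6.91. Each combination library was above every other library, and TH10785 replicate 3 was the lowest of all. Against DMSO the rise was 1.98-fold, a log2 fold change of 0.98 (SE 0.29, edgeR adjusted p = 0.0135), and with the offsets 0.18 (SE 0.18, adjusted p = 0.451, edgeR).

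MRPL42 (ENSG00000198015, chr12:93467488-93516213) encodes a mitochondria-specific protein of the large subunit. It measured 13.7, 9.41 and 13.1 CPM in DMSO, 15.6, 16.2 and 9.1 with TH10785, 9.53, 11.8 and 8.64 under PNKP1i and 21.5, 24.2 and 23.4 with both. The combination libraries were again above the other 9. The log2 fold change against DMSO was 0.93 (SE 0.21, edgeR adjusted p = 0.00236), and 0.26 with the offsets (adjusted p = 0.247, edgeR). MRPS10, named after bacterial S10 in the head of the small subunit, had the smallest p. It measured 42.7, 37.4 and 36.6 CPM in DMSO and 62.2, 66.6 and 57.1 with both compounds. No other library reached the combination, since the highest single-agent value was 49 CPM. The log2 fold change was 0.67 (SE 0.13, edgeR adjusted p = 0.000957), and 0.08 with the offsets (adjusted p = 0.581, edgeR).

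MRPL13, a large-subunit protein with a bacterial number, measured 33.2, 28.9 and 28.5 CPM in DMSO, 46.5, 44.8 and 28.4 with TH10785, 29, 38.8 and 32.3 under PNKP1i and 48.3, 59.9 and 50.9 with both. The combination libraries were the highest, and 2 TH10785 libraries came close to them. The log2 fold change against DMSO was 0.81 (SE 0.17, edgeR adjusted p = 0.00149). MRPL50, a mitochondria-specific protein with the lowest GC content of the members, measured 9.03, 6.35 and 10.4 CPM in DMSO and 14.9, 14.0 and 18.6 with both, again apart. Its log2 fold change was 0.87 (SE 0.26, edgeR adjusted p = 0.012), and 0.04 with the offsets. MRPL47 was at 0.77 (SE 0.20), MRPL3, near the peptidyl transferase centre, at 0.54 (SE 0.13), and MRPS36 at 0.57 (SE 0.18). MRPS23, specific to mitochondria, was at 0.57 (SE 0.18, edgeR adjusted p = 0.0188), and at 0.46 with the offsets, where it was not called (adjusted p = 0.0829, edgeR). Its call was lost in 7 of 23 alternatives. It differed from the others in that its DMSO libraries, at 71.2, 48.4 and 39.2 CPM, overlapped the combination, at 68.2, 99.7 and 67.9 CPM. The 3 members with the fewest counts, MRPS24, MRPL53 and MRPL38, were at 0.05, -0.56 and -0.27, none of them called, with SE of 0.27, 0.26 and 0.21. With the offsets they were at 0.21, -0.46 and 0.09.

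Of the members that fell, MRPL37, a mitochondria-specific protein of the large subunit, measured 167, 187 and 162 CPM in DMSO and 116, 144 and 121 with both compounds. The groups were apart, with a log2 fold change of -0.44 (SE 0.14, edgeR adjusted p = 0.0227) and of -0.31 with the offsets (adjusted p = 0.0226, edgeR). MRPS18B, 1 of 3 human proteins related to bacterial S18, measured 87.8, 94.7 and 76.2 CPM with both compounds, below the lowest DMSO library at 101 CPM. Its log2 fold change was -0.37 (SE 0.13, edgeR adjusted p = 0.0358) and -0.32 with the offsets (adjusted p = 0.0174, edgeR). The 3 relatives differed in sign: MRPS18C was at 0.52 (SE 0.18, edgeR adjusted p = 0.0282) and MRPS18A at -0.27 (SE 0.19, edgeR adjusted p = 0.277). Their GC contents were 51.7% for MRPS18B, 38.9% for MRPS18C and 58.1% for MRPS18A, and with the offsets MRPS18C was at -0.13. MRPS18A shares 47.0% of its exon length with RSPH9 and MRPS18C 40.2% with ABRAXAS1, both on the opposite strand, and MRPS18B shares 0.0%. Whether counting used strand is not stated, so reads of these neighbours may mix with those of MRPS18A and MRPS18C. MRPL2, at the peptidyl transferase centre, was at -0.37 (SE 0.14, edgeR adjusted p = 0.041) and with the offsets at -0.20 (adjusted p = 0.121, edgeR).

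**Figure D2:**
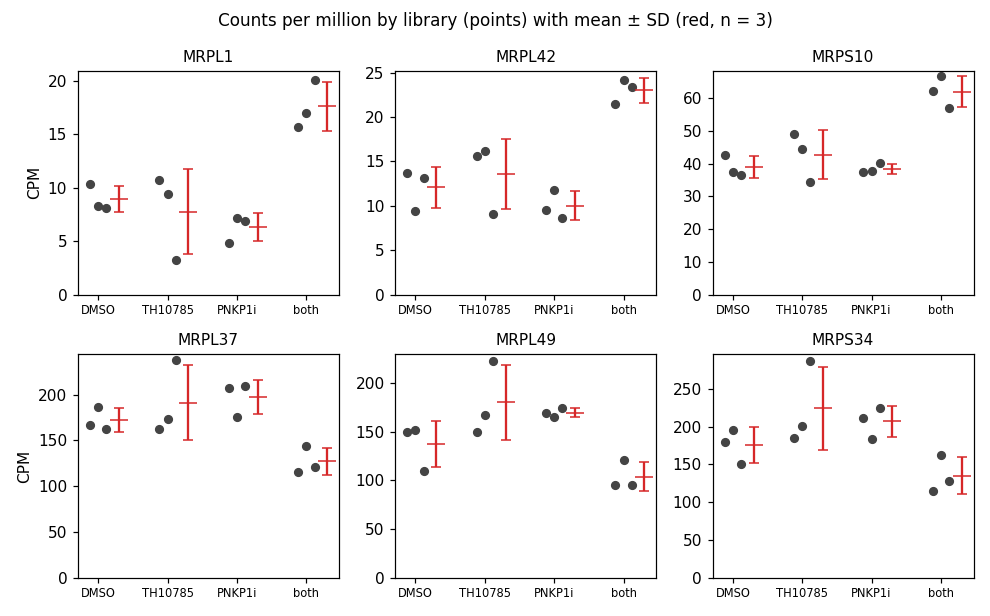
CPM (linear vertical axis from 0) in each of the 12 libraries for 6 members, with the 4 groups along the horizontal axis, 3 libraries as points and mean ± SD in red. MRPL1, MRPL42 and MRPS10 are highest in the combination libraries, and MRPL37, MRPL49 and MRPS34 have combination means below their DMSO means.

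The relation with GC content ran through the whole group. Across the 78 members, Pearson's r between GC content and the log2 fold change was -0.65 for both compounds against DMSO, and -0.45 across the 17282 tested genes with a GC value. For TH10785 it was 0.24 across the members and 0.06 across the 17282 genes, and for PNKP1i 0.50 and 0.19. These points are genes of the same libraries, and the values are descriptions. Of the 15 members under 42% GC, 9 rose with both compounds and 0 fell, with a median of 0.54; all tested genes of that class had a median of 0.65. Of the 30 members over 52% GC, 0 rose and 3 fell, with a median of -0.17; all tested genes of that class had -0.27. These class limits were chosen after the values were seen, and the counts of calls have no called share of all tested genes of the class beside them. With the offsets the members' r was 0.40, of the opposite sign. The 5 rises were then MRPL36, MRPL21, MRPL24, MRPS25 and MRPS26, and the 9 falls MRPL22, MRPL33, MRPS14, MRPL44, MRPS27, MRPS9, MRPL37, MRPS18B and MRPL16. MRPL44, a protein near the exit of the peptide tunnel that resembles an RNase, was at -0.22 without the offsets and at -0.57 (SE 0.11) with them. Whether GC content has a part in the members' changes was not tested beyond these fits.

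**Figure D3:**
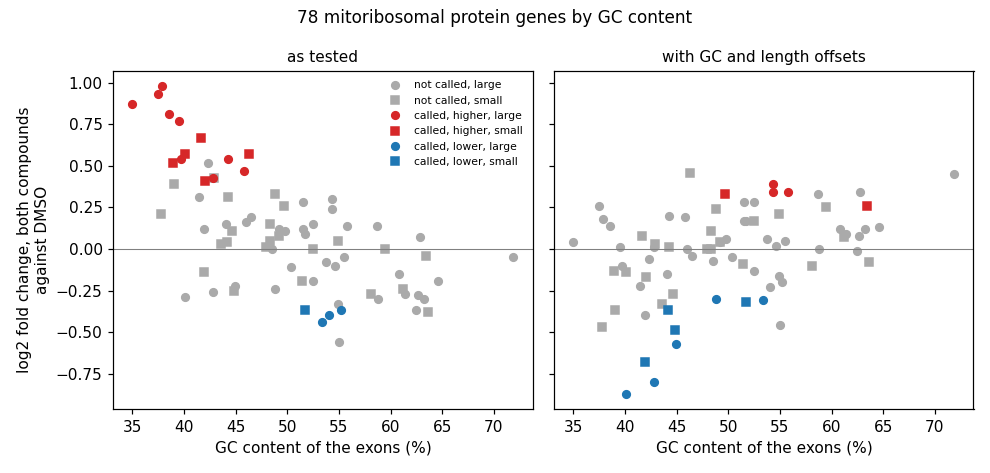
Log2 fold change of the 78 members with both compounds against DMSO (vertical axis), as tested (left) and with offsets for GC content and length (right). The horizontal axis, labelled GC content of the exons, gives the percent GC over all annotated transcripts of each gene. Circles are large-subunit and squares small-subunit genes. Called rises are red and called falls blue: 14 and 4 on the left, 5 and 9 on the right, with the red points at the low-GC end on the left only.

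Adding PNKP1i to TH10785, 7 members rose and 21 fell, or 8.97% and 26.9%, where 22.7% of all tested genes rose and 19.7% fell. The median was -0.21, against 0.02 over all tested genes. Adding TH10785 to PNKP1i, 11 rose and 17 fell, or 14.1% and 21.8%, where 24.4% and 21.5% of all tested genes did. The median was -0.14, against 0.01. With the offsets these counts were 1 and 20 (1 rise and 10 falls of the first kept), and 2 and 15 (1 rise and 7 falls kept). The first pair was 1.28% and 25.6% of the members, where 15.5% and 17.3% of all tested genes passed. The second was 2.56% and 19.2%, where 15.7% and 16.2% passed. The offsets removed most of the rises, and many of the falls were of other members.

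MRPL49, a mitochondria-specific protein of the large subunit, had the smallest p among the falls against TH10785. It measured 150, 152 and 110 CPM in DMSO, 150, 167 and 223 with TH10785, 169, 165 and 174 under PNKP1i, and 95.7, 121 and 94.8 with both. Each single-agent library was above each combination library, and the DMSO and combination libraries overlap. Against TH10785 the log2 fold change was -0.79 (SE 0.16, edgeR adjusted p = 0.00108), and -0.56 with the offsets (adjusted p = 0.000995, edgeR). Against PNKP1i it was -0.71 (SE 0.16, edgeR adjusted p = 0.00181), and -0.43 with the offsets (adjusted p = 0.00604, edgeR). MRPS34 measured 180, 196 and 150 CPM in DMSO, 185, 201 and 287 with TH10785, 211, 184 and 225 under PNKP1i and 115, 162 and 128 with both. The combination was again below each single agent, at -0.73 against TH10785 (SE 0.17, edgeR adjusted p = 0.00283) and -0.62 against PNKP1i (SE 0.17, edgeR adjusted p = 0.00675). With the offsets these values were -0.28 (adjusted p = 0.0362) and -0.20 (adjusted p = 0.138, both edgeR). MRPL23, at the exit of the peptide tunnel, measured 23.5, 30.0 and 41.6 CPM with TH10785 and 13.2, 23.4 and 17.4 with both, a narrow separation. It had the largest fall against TH10785, -0.82 (SE 0.21, edgeR adjusted p = 0.00581), and was at -0.40 with the offsets (adjusted p = 0.047, edgeR). MRPL28, a large-subunit protein named after bacterial L28, fell by 0.67 against PNKP1i (SE 0.16, edgeR adjusted p = 0.00348), and was at -0.22 with the offsets (adjusted p = 0.179, edgeR). MRPS7, in the head of the small subunit, fell by 0.48 against TH10785 (SE 0.14, edgeR adjusted p = 0.0131) and by 0.33 with the offsets (adjusted p = 0.0253, edgeR), and combination replicate 2, at 116 CPM, was near the lowest TH10785 library at 123. MRPL1 rose against both single agents, by 1.18 against TH10785 (SE 0.30, edgeR adjusted p = 0.00478) and 1.48 against PNKP1i (SE 0.30, edgeR adjusted p = 0.00102). With the offsets these were 0.48 (adjusted p = 0.0434) and 0.58 (adjusted p = 0.0181, both edgeR).

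The interaction is the effect of both compounds minus the sum of the single effects on the log2 scale. It was called above 0 for 5 members (6.41%) and called below 0 for 23 (29.5%), where 16.5% and 14.1% of all tested genes passed. The members' median was -0.39, against 0.00 over all tested genes. With the offsets it was called above 0 for 1 member (MRPL1) and called below 0 for 20, of which 9 were among the 23. The members' median was then -0.32, and 7.92% and 9.95% of all tested genes passed. Without the offsets the members called above 0 were MRPL1 at 1.68, MRPL50 at 1.09, MRPL42 at 1.03, MRPS10 at 0.56 and MRPS35 at 0.53. With the offsets MRPL50 was at 0.02, MRPL42 at -0.15, MRPS10 at -0.04 and MRPS35 at -0.01, none of them called. Those called and furthest below 0 were MRPL49 at -1.10 (SE 0.22, edgeR adjusted p = 0.00561), MRPL23 at -1.02, MRPL41 at -1.0 and MRPS34 at -0.97. Of these MRPL49 stayed called with the offsets, at -0.76, and MRPL23, MRPL41 and MRPS34, at -0.51, -0.59 and -0.39, did not. MRPS6 was at -0.89 (SE 0.19, edgeR adjusted p = 0.0062) and at -1.38 with the offsets, and MRPL11 at -0.94 (SE 0.25, edgeR adjusted p = 0.0116) and at -0.68. MRPL11 measured 112, 111 and 121 CPM with PNKP1i, 108, 113 and 147 with TH10785 and 78.1, 110 and 76.6 with both, so the combination was near DMSO while the single agents were above it.

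The subunits had close medians in each comparison. The median log2 fold change was 0.29 for the large and 0.27 for the small with TH10785, 0.17 and 0.15 under PNKP1i, and 0.09 and 0.05 with both. Against TH10785 the combination gave -0.23 and -0.21, against PNKP1i -0.15 and -0.08, and the interaction medians were -0.41 and -0.39. With both compounds against DMSO, 9 of 49 large-subunit genes rose and 3 fell, and 5 of 29 small-subunit genes rose and 1 fell. Of all tested genes, 21.3% rose and 19.7% fell. The interaction was called below 0 for 16 large and 7 small members, or 32.7% and 24.1%, where 14.1% of all tested genes were. The ratio of the summed CPM of the large to that of the small subunit was 1.545 ± 0.037 in DMSO, 1.601 ± 0.017 with TH10785, 1.549 ± 0.038 with PNKP1i and 1.539 ± 0.052 with both (SD, n = 3). The range of each treated group overlapped that of DMSO, and all TH10785 libraries were above all combination libraries, by a narrow margin. Counted by place, with MRPS18A and MRPS30 in the large subunit and MRPS36 in neither, 51 and 26 members gave ratios of 1.695 ± 0.032, 1.745 ± 0.014, 1.686 ± 0.037 and 1.697 ± 0.043 in the same order. The difference between the subunits was not tested, because these 78 genes were chosen with earlier results known.

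**Figure D4:**
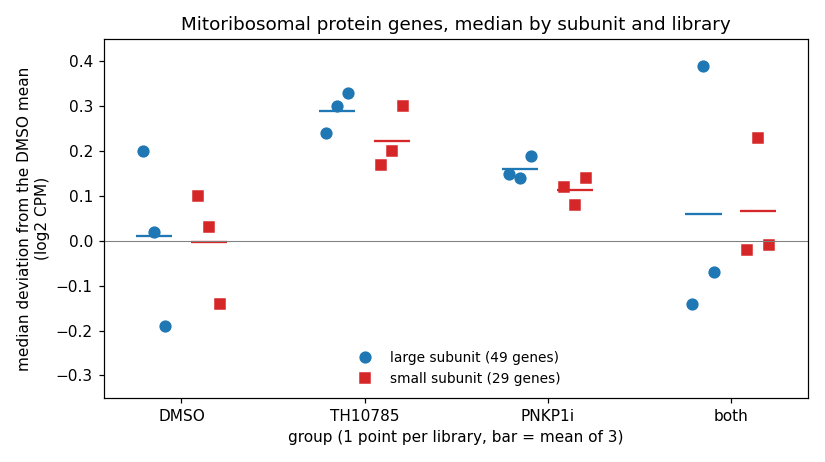
Median deviation from the DMSO mean in log2 CPM (vertical axis) over the 49 large-subunit (blue circles) and 29 small-subunit genes (red squares), 1 point per library and a bar at the mean of the 3, for the 4 groups. Both subunits lie above 0 in all TH10785 and PNKP1i libraries, DMSO replicates spread from -0.19 to 0.20, and combination replicate 2 stands above the other combination libraries.

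Within the subunits, the 13 small-subunit genes by symbol with no bacterial number had a median of 0.26 with both compounds against DMSO, with 3 rises and 0 falls; the 16 with one had 0.02, with 2 rises and 1 fall. The shares of all tested genes were 21.3% and 19.7%. With the offsets the order turned: the 13 were at -0.08, with 2 rises and 1 fall, and the 16 at 0.00, with 0 rises and 3 falls. In the large subunit the medians were 0.07 for the 21 genes without and 0.10 for the 28 with a bacterial number, and 0.01 and 0.06 with the offsets. Of the 3 stalk proteins MRPL10, MRPL11 and MRPL12, 0 were called against DMSO, 2 fell against TH10785 and 2 fell against PNKP1i. Of all tested genes, 19.7% fell against TH10785 and 21.5% against PNKP1i. With the offsets 0 of the 3 stalk proteins were called in any of these comparisons. MRPL12 measured 40.4, 44.0 and 59.4 CPM with TH10785 and 27.6, 35.9 and 28.7 with both, a log2 fold change of -0.64 (SE 0.15, edgeR adjusted p = 0.00383). The groups do not overlap, and with the offsets the value was -0.18 (adjusted p = 0.167, edgeR). For MRPL12, 68.2% of the exon length is shared with AC139530.2 on the same strand, so counting by strand would not separate their reads. How reads in the shared part were counted is not stated in these sources, so reads of both genes may mix. Of the exit-tunnel list of 5, 0 were called with both compounds against DMSO, and with the offsets 1 rose and 2 fell.

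The libraries differed in ways that bear on these values. The median deviation of the members from the DMSO mean ran from -0.17 to 0.15 log2 under DMSO. It ran from 0.21 to 0.32 under TH10785 and from 0.12 to 0.19 under PNKP1i, and under both compounds it was -0.08, 0.30 and -0.07. DMSO replicate 1 therefore reached the PNKP1i range, and combination replicate 2 stood with the TH10785 libraries. Without combination replicate 2, 9 members rose and 10 fell against DMSO, and without DMSO replicate 2, 6 rose and 0 fell. Of all tested genes, 20.6% rose and 17.7% fell in the first case, and 14.2% and 14.8% in the second. TH10785 replicate 3 had all tested genes under 42% GC at a median of -0.66, where the other TH10785 libraries were at 0.21 and 0.10. Without that replicate 18 members rose and 10 fell with both compounds, where 26.1% of all tested genes rose and 21.4% fell. With both of these treated libraries left out, an alternative chosen after the libraries were seen, 14 members rose and 19 fell. Of all tested genes, 25.6% then rose and 22.3% fell. Total counts ran from 16225339 to 21546369 per library. Of 6 markers fixed for an osteosarcoma line, VIM, COL1A1, SPARC, RUNX2 and ALPL were among the tested genes and COL1A2 was not. With both compounds against DMSO, COL1A1 fell by 1.27, SPARC by 0.91, RUNX2 by 0.76 and VIM by 0.59, and ALPL rose by 1.47, and all 5 calls were kept with the offsets. ALPL also rose by 1.82 with TH10785 alone. The part of these marker changes in the members' values was not tested. Among markers of other cell types, CD3E was at 0 CPM in DMSO and EPCAM at 3.41 ± 0.29 CPM.

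Other nuclear genes for ribosomes and for the respiratory chain gave the following values. For the 84 cytosolic ribosomal protein genes the median log2 fold change was 0.45 with TH10785, 0.31 with PNKP1i and 0.33 with both, with 30 rises and 1 fall in the last. For 78 tested respiratory chain subunits it was 0.26, 0.14 and -0.04, with 8 rises and 14 falls. With the offsets the combination gave 37 rises and 1 fall for the cytosolic and 5 rises and 17 falls for the respiratory chain genes. Of all tested genes, 21.3% rose and 19.7% fell with both compounds, and 16.9% and 17.5% with the offsets. The interaction median was -0.40 for the cytosolic and -0.42 for the respiratory chain genes, against -0.39 for the members. The medians of all 3 groups were above 0 with each single agent, and the differences between the groups were not tested.

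The RNAs of the same ribosome, encoded in mitochondrial DNA, were also counted. MT-RNR1, the RNA of the small subunit, measured 590, 747 and 857 CPM in DMSO, 705, 673 and 696 with TH10785, 1040, 1040 and 945 under PNKP1i and 1460, 980 and 1090 with both. The combination was above all DMSO libraries, with a log2 fold change of 0.69 (SE 0.16, edgeR adjusted p = 0.00264), and 0.36 with the offsets (adjusted p = 0.159, edgeR). MT-RNR2, the RNA of the large subunit, rose by 0.52 (SE 0.16, edgeR adjusted p = 0.018), and was at -0.02 with the offsets. Of the 5 mitoribosomal proteins with other names (DAP3, PTCD3, CHCHD1, AURKAIP1 and GADD45GIP1), 0 were called in any comparison with DMSO, and with both compounds they ran from -0.24 to 0.37.

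Of all tested genes, 21.3% rose and 19.7% fell with both compounds against DMSO, and 16.9% and 17.5% with the offsets. Of 28 genes for assembly of the mitochondrial ribosome, 4 rose and 5 fell in this comparison, with a median of -0.02. With the offsets 4 rose and 2 fell, and 2 of the rises and 2 of the falls were kept. GTPBP10, a GTPase of large-subunit assembly, rose by 1.28 (edgeR adjusted p = 0.000943) and was at 0.56 with the offsets (edgeR adjusted p = 0.0107). DHX30, a helicase of mitochondrial RNA granules, fell by 0.57 (edgeR adjusted p = 0.00234) and was at -0.27 with the offsets (edgeR adjusted p = 0.0305). Of 15 translation factors, 5 rose and 3 fell, with a median of 0.40, and with the offsets 2 rose and 1 fell, with a median of 0.04. MTIF2, the initiation factor that brings the first tRNA, was at 1.14 (edgeR adjusted p = 0.00182) and 0.77 with the offsets (edgeR adjusted p = 0.00232). TUFM, the elongation factor that delivers tRNA, fell by 0.43 (edgeR adjusted p = 0.0242), and was at -0.19 with the offsets (edgeR adjusted p = 0.11).

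Of 11 regulators, 3 rose and 0 fell with both compounds against DMSO, and 0 were called with either agent alone. The share of all tested genes that rose was 21.3%. With the offsets 6 of the 11 rose and 0 fell, where 16.9% of all tested genes rose: the earlier 3 and ESRRA at 0.62, PPARGC1B at 0.70 and POLRMT at 0.32. MYC, a growth regulator, measured 128 ± 15 CPM in DMSO (SD, n = 3) and 397, 213 and 221 CPM with both compounds. Combination replicate 1 stood far above the others. The log2 fold change was 1.12 (edgeR adjusted p = 0.000402), and 1.36 with the offsets. TFAM, which packs mitochondrial DNA and starts its transcription, rose by 1.11 (edgeR adjusted p = 0.000709) and TFB2M, the partner of the mitochondrial RNA polymerase, by 1.02 (edgeR adjusted p = 0.000423). With the offsets these were 0.48 (edgeR adjusted p = 0.0011) and 0.43 (edgeR adjusted p = 0.0425). NRF1 was at -0.22, YY1 at 0.08 and GABPA at 0.65, none of them called against DMSO (edgeR adjusted p = 0.159, 0.606 and 0.0718).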

How the data were processed

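The deposited raw table holds read counts per gene, and per the submitters' processing notes the tools were HISAT2 2.0.5, HTSeq 0.6.1 and DESeq2 1.30.1 with GRCh38 (hg38); annotation and strand use are not given in the sources used here. The authors' second deposited table holds a normalized signal, in which a library's values are its counts over a single constant (from the values), and served as a check only. Column and row names were matched to the labels' groups. No replicate pair was identical.

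Members and lists were chosen with earlier results of these data known. The counts were tested in edgeR 4.0.16 (R 4.3.3): filterByExpr over the 4 groups (minimum count 10, total 15; 17290 genes), TMM, robust quasi-likelihood with a mean per group over 12 libraries, two-sided F tests, and Benjamini-Hochberg adjustment over all tested genes in each comparison, called under 0.05. SE is the absolute log2 fold change over the square root of F. Exon length (exons of a gene merged), GC content (over all annotated transcripts of a gene) and exon sharing came from GENCODE 29. Library deviations used log2 CPM with 0.5 added. The code was tested on simulated data.

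Named by rule: the 8 largest rises and 8 largest falls against DMSO (4 and 4 elsewhere) among called members, 15 fixed members, the 3 highest and lowest per kb, the 3 nearest the count minimum and the 3 smallest p. Members outside it were named where a count was small or a list was given in full.

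Alternatives were other scalings, DESeq2 1.42.0, limma-voom (limma 3.58.1), other filters, only the groups compared, a replicate block, offsets from splines of GC content and length (5 degrees of freedom), each library left out, and 2 added after the data were seen: members sharing 20% or more of their exons left out, and TH10785 replicate 3 with combination replicate 2 left out.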

Additional observations from a re-analysis of the deposited data

Results flagged for a closer look

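The interaction term tests whether the effect of one compound differs with and without the other. It was called above 0 for 5 members and called below 0 for 23 by edgeR's quasi-likelihood test, where 16.5% and 14.1% of all tested genes passed. The named members that passed were, on the log2 scale, MRPL1 at 1.68, MRPL50 at 1.09, MRPL42 at 1.03 and MRPS10 at 0.56 above 0. Below 0 were MRPL49 at -1.10, MRPL23 at -1.02, MRPL41 at -1.0, MRPS34 at -0.97, MRPL11 at -0.94, MRPL12 at -0.91, MRPS6 at -0.89, MRPS18A at -0.85 and MRPS7 at -0.55. MRPL1, MRPL49, MRPL11 and MRPS6 passed under all 22 alternatives run for each, with values from 0.88 to 1.95, -1.24 to -0.76, -1.14 to -0.68 and -1.38 to -0.81. The others lost the call in some of the 22, each of them with the GC and length offsets. MRPS7 lost it in 13, MRPS10 in 10 with 2 more where the sign changed, MRPL50 in 8, MRPS18A in 7, MRPL23 in 4, MRPL41 in 3, MRPL12 and MRPS34 in 2 each, and MRPL42 in 1 with 2 more where the sign changed.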

How the results depend on the processing

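Calls with single agents were few under every setting: with TH10785 there was 1 with DESeq2, 6 without a count filter, 1 with the GC and length offsets, 4 with TH10785 replicate 3 and combination replicate 2 (the doubted libraries) left out together and 0 to 2 with 1 library left out, and with PNKP1i 1 with DESeq2, 3 with only the groups compared, 3 with both doubted libraries left out and 0 to 1 with 1 left out. These calls were all rises. Of all tested genes, 1.39% rose with TH10785 in DESeq2, 1.11% without a count filter and 1.42% with the offsets. The share was 1.13% without both doubted libraries and 0.241% to 0.814% with 1 library left out. With PNKP1i the shares were 0.581% in DESeq2 and 3.64% with only the groups compared. They were 2.05% without both doubted libraries and 0.0337% to 1.04% with 1 left out. For both compounds against DMSO, the rises were 5 with the offsets, 3 with the offsets and the replicate block and 6 to 18 with 1 library left out. Of all tested genes, 16.9%, 15.4% and 14.2% to 26.1% rose in those settings. The falls were 2 without a count filter, 9 with only the groups compared and 9 with the offsets with or without the block. They were 19 with both doubted libraries left out and 0 to 10 with 1 left out. In the same order, 8.62%, 22%, 17.5% (16.3% with the block), 22.3% and 14.8% to 21.4% of all tested genes fell. Against TH10785 the rises were 1 with the offsets, 0 with the offsets and block and 4 to 7 with 1 library left out. The falls there were 11 with only the groups compared and 10 to 33 with 1 left out. In the same order, 15.5%, 14.1% and 16.2% to 22.6% of all tested genes rose, and 14.3% and 14.7% to 20.1% fell. Against PNKP1i the rises were 2 with the offsets with or without the block and 8 to 14 with 1 library left out, and the falls 34 with both doubted libraries left out and 7 to 23 with 1 left out. The interaction was called above 0 for 3 members without a count filter and 1 with the offsets with or without the block. The count was 3 with both doubted libraries left out and 2 to 6 with 1 left out. Calls below 0 were 15 with offsets and block and 36 with both doubted libraries left out. With 1 left out they were 9 to 36 (9 without DMSO replicate 3, 36 without combination replicate 2). The falls against DMSO were 0 without DMSO replicate 2 or combination replicate 3, 1 without PNKP1i replicate 1 or combination replicate 1, 2 without DMSO replicate 1 or PNKP1i replicate 3 and 10 without TH10785 replicate 3 or combination replicate 2. The rises against DMSO were 6 without DMSO replicate 2 and 9 without DMSO replicate 3 or combination replicate 2. The falls against TH10785 were 10 without combination replicate 1 or 3, 12 without TH10785 replicate 3 and 33 without combination replicate 2. The falls against PNKP1i were 7 and 11 without combination replicates 3 and 1, and 9 and 10 without PNKP1i replicates 3 and 1. The interaction was called below 0 for 11 and 13 members without PNKP1i replicates 3 and 1, and for 12 and 14 without combination replicates 3 and 1. It was called above 0 for 2 or 3 members without any 1 of the DMSO, PNKP1i or combination libraries or TH10785 replicate 3. The counts against PNKP1i and in the interaction are given here without a share of all tested genes. Why these counts moved was not tested.

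Replicate numbers did not pair the libraries: same-numbered libraries of different groups correlated in their deviations from the group means at -0.21 to 0.11, with 1 of 18 pairs over 0.1. With the replicate number as a block, both compounds against DMSO gave 13 rises and 1 fall, against TH10785 5 and 18, and against PNKP1i 11 and 14. Of all tested genes, 18.9% rose and 18.4% fell against DMSO, 20.9% and 18.1% against TH10785, and 22.8% and 19.8% against PNKP1i. The interaction gave 4 and 18 members, with no such share beside it.

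Medians moved as follows, by less than the SD of 0.16 between the DMSO libraries' medians for the medians over all members. With TH10785 the members' median was 0.22 with the offsets, with or without the block, 0.22 with both doubted libraries left out, and 0.19 to 0.37 with 1 library left out. With PNKP1i it was 0.10 with the offsets and 0.09 to 0.24. The large minus the small median with TH10785 was 0.11 without members that share 20% or more of their exons and 0.02 to 0.08 with 1 library left out. With PNKP1i it was -0.02 with the offsets, 0.10 without those members, 0 from summed CPM and -0.03 to 0.07. Against PNKP1i it was 0.12 with the offsets and 0.11 with offsets and block.

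Signs changed with the offsets, and with offsets and block in the same order, for MRPS18C (-0.13 and -0.14) and MRPS36 (-0.14 and -0.14) with both compounds against DMSO, and for MRPL47 at 0.00 with offsets and block. Called rises outside the named genes also turned there with the offsets, MRPL32 to -0.10 and MRPS35 to -0.17, as did MRPS35 in the interaction, to -0.01. MRPL38, not called, went from -0.27 to 0.09. Further called members changed sign against TH10785 (MRPL19, MRPS31 and MRPS35) and against PNKP1i (MRPL13, MRPL32, MRPL4, MRPS2 and MRPS35). Against TH10785 they changed for MRPL42 (-0.13 and -0.14), MRPL50 (-0.03 and -0.03), MRPS10 (0.00 and 0.00) and MRPS18C (-0.70 and -0.72, edgeR adjusted p = 0.00546 and 0.00708). Against PNKP1i they changed for MRPL47 (-0.08 and -0.08) and MRPS36 (-0.14 and -0.14), and in the interaction for MRPL42 (-0.15 and -0.15) and MRPS10 (-0.04 and -0.04).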
